A study of Mus musculus and Homo sapiens with 8 samples.

Results

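The genes described here encode platelet glycoproteins and other proteins known from megakaryocytes and platelets, namely PF4, ITGA2B, ITGB3, GP1BA, GP1BB, GP9, PLEK, F2R, TUBB1 and TIMP3. They were chosen by name, with earlier results of these data known. All 10 symbols were listed among the 17097 genes of the mouse tables and all 10 passed the filter on low counts, while 9 were listed among the 20296 genes of the human tables and passed the filter, since GP1BB had no row of its own there. Messenger RNA was measured by bulk RNA sequencing in 2 experiments on loss of ANP32B, a nuclear protein that binds histones and acts as a chaperone for them. In the first, KU812 cells, an established human line of chronic myelogenous leukemia, were infected with a short hairpin RNA against ANP32B (shANP32B, n = 2) or with a control hairpin (shNC, n = 2). In the second, LSK cells, bone marrow cells without lineage markers that carry Sca-1 and c-Kit and that include hematopoietic stem cells, came from C57BL/6 mice that were knocked out for Anp32b (KO, n = 2) or wild type (WT, n = 2). The labels are silent on whether the knockout covers all tissues, on the age of the mice and pooling of animals, on the number of hairpins and on the time after infection. They also do not tie the 2 libraries of a group to different mice or cultures, so the p-values below rest on a spread that could be technical.

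Megakaryocytes are the large bone marrow cells that shed platelets. The platelet surface carries a receptor for von Willebrand factor made of GPIbα (GP1BA), GPIbβ (GP1BB), GPIX (GP9) and GPV, which slows platelets on an injured vessel wall, and an integrin of the subunits αIIb (ITGA2B) and β3 (ITGB3), which binds fibrinogen and links platelets to each other. Thrombin activates human platelets through the receptor PAR1 (F2R), and protein kinase C then phosphorylates pleckstrin (PLEK). Platelets also release the chemokine PF4 from their alpha granules and keep their disc shape with a ring of microtubules that holds the β1 tubulin TUBB1. TIMP3, an inhibitor of matrix metalloproteinases that is held in the extracellular matrix, is made in many tissues and is not a platelet glycoprotein. Transcription factors of the GATA, ETS, RUNX and NF-E2 families are known to switch on genes of megakaryocytes. Stem cells biased toward megakaryocytes also carry several of these transcripts, ITGA2B (CD41) among them.

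The sequences that lie just before the mouse genes Gp1ba, Gp9 and Pf4 are given because the first and second encode subunits of 1 receptor complex and the third is widely used as a megakaryocyte marker. Each is the 250 bases before the RefSeq start of the gene (GRCm38.p6), 5′ to 3′ on the strand of the gene, which is the plus strand for all 3. Capitals mark the letters GATAA, the core that GATA factors bind, and the letters GGAAGT, a core that ETS factors bind, each also as its reverse complement.
Gp1ba, chr11:70638872-70639121: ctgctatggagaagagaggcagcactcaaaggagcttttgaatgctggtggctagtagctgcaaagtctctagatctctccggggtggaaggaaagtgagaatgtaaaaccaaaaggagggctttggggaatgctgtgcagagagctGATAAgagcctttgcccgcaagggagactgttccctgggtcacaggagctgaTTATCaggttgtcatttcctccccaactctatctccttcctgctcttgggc
Gp9, chr6:87777820-87778069: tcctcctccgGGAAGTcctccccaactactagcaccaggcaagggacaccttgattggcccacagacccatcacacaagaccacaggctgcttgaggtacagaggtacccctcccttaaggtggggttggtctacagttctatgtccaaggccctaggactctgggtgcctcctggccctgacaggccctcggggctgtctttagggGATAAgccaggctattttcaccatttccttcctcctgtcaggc
Pf4, chr5:90772185-90772434: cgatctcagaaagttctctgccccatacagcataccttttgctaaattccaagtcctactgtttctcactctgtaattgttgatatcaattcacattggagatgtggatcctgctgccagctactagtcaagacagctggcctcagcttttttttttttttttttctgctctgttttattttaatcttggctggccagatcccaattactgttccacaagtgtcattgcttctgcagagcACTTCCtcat
The Gp1ba window held GATAA 103 bases before the start and its reverse complement 51 bases before it. The Gp9 window held GATAA 43 bases and GGAAGT 240 bases before the start, and the Pf4 window held the reverse complement of GGAAGT 10 bases before it. Of the 9 members with a RefSeq entry, 3 held GATAA (Gp1ba, Gp9 and Plek) and 3 held GGAAGT (Gp9, Pf4 and Itga2b), against 22.5% and 19.8% of all 32536 mouse promoters of that length. TGTGGT, a RUNX core, was found in 2 members (Gp9 and F2r, against 14% of all promoters). TGAGTCA, a core that sites of NF-E2 share with those of the AP-1 family, was found in 1 (F2r, against 4.45% of all promoters). By GENCODE, the windows of Itga2b, F2r and Timp3 overlapped exons of the same gene, and the Gp1bb window overlapped an exon of Sept5. The Plek window lay inside the span of Plek. Both strands were searched for each motif, and the motifs share no overlapping match in the 3 sequences shown. A match is a run of letters, not a bound site.

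The libraries held between 24416691 and 28209409 counts in KU812 cells and between 10549358 and 15683480 counts in LSK cells. Levels are given as CPM (counts scaled to a common library size by the TMM method), and 3 counts, taken as the floor of detection in 1 library, stood for 0.107 to 0.122 CPM in KU812 cells and for 0.197 to 0.286 CPM in LSK cells, counting error only. The targeted gene stood at 40.4 and 38.2 CPM with shANP32B, against 250 and 286 CPM with shNC, and at 201 and 249 CPM in KO cells, against 794 and 730 CPM in WT cells. The knockdown passed the test (edgeR adjusted p = 5.18e-08). The knockout missed it (adjusted p = 0.148) though Anp32b was lower in both KO libraries, and was called by DESeq2 (adjusted p = 1.23e-22) and by edgeR without the first WT library (adjusted p = 0.000402). Kit was at 399 and 355 CPM in KO cells, against 335 and 372 CPM in WT cells, and Ly6a, which encodes Sca-1, at 37.8 and 43.4 CPM in KO cells, against 60.2 and 45.5 CPM in WT cells. In KU812 cells the basophil and mast cell genes HDC (1220 and 1130 CPM with shANP32B, against 1260 and 1090 CPM with shNC) and CPA3 (1060 and 1150 CPM, against 530 and 532 CPM) were abundant. The WT pair differed more (chi-square of 47.7 per degree of freedom across genes) than the KO pair (7.7), a measure that does not say which of the 2 WT libraries stands apart.

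In KU812 cells 4 of the 9 members rose and 1 fell after knockdown of ANP32B. GP1BA, F2R and PLEK rose to about 2 times their control levels or more, ITGB3 rose by a smaller amount, and TIMP3 fell to 0.536 of its control level. ITGA2B, GP9, PF4 and TUBB1 did not pass the test (edgeR quasi-likelihood test, Benjamini-Hochberg adjustment over 16529 genes, threshold 0.05). Of all genes tested, 16.6% were called, 7.53% higher and 9.06% lower (1244 and 1497 genes, or 1474 and 1182 with library totals in place of TMM scaling). The median log2 fold change (shANP32B over shNC) of the 9 members was 0.42, beside 0.00 over all genes tested. In 8 of the 9 members both shANP32B libraries lay above both shNC libraries, and in the remaining one, TIMP3, both lay below, while the groups did not overlap in 58.5% of all genes tested (29.5% higher and 28.9% lower). At an unadjusted p under 0.05, 30.5% of all genes tested passed.

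**Figure D1:**
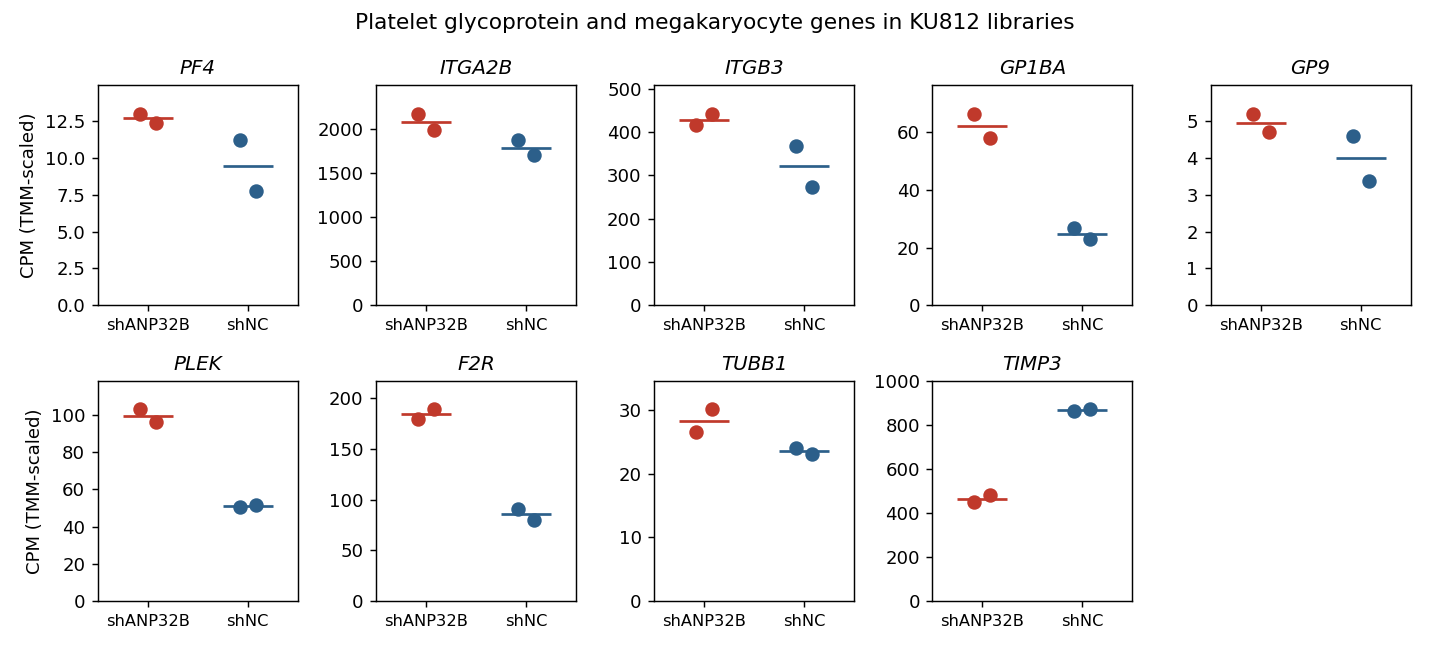
Level of each listed member in the 4 KU812 libraries, in TMM-scaled CPM on linear axes from 0, 1 panel per gene, with the 2 shANP32B libraries left of the 2 shNC libraries and a bar at each group's mean. GP1BA, F2R and PLEK separate most widely upward, TIMP3 is the member with shANP32B points (450 and 481 CPM) below the shNC points (866 and 871 CPM), and the groups of the other 5 members lie nearer to each other.

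Of the subunits of the von Willebrand factor receptor, GP1BA rose in KU812 cells, while GP9 and GP5 did not pass the test. GP1BA, the subunit that binds von Willebrand factor and thrombin, had 66.4 and 58.0 CPM in shANP32B cells, against 26.7 and 22.9 CPM in shNC cells. Both knockdown libraries were above both controls, and the ratio of means was 2.51 (log2 fold change 1.32, SE 0.144, 95% confidence interval 1.02 to 1.63, adjusted p = 5.65e-05). GP9, the small subunit that stabilises the complex at the surface, had 5.21 and 4.72 CPM in shANP32B cells, against 4.61 and 3.38 CPM in shNC cells. The groups lay side by side without overlap, but the difference did not pass the test (log2 fold change 0.31, SE 0.303, 95% confidence interval -0.34 to 0.96, adjusted p = 0.537). GP5, the subunit bound loosely to the complex, had 0.502 and 1.33 CPM in shANP32B cells, against 2.97 and 2.28 CPM in shNC cells, and missed the threshold (log2 fold change -1.52, adjusted p = 0.058). It was past the threshold without the second shNC library (adjusted p = 0.00992), without the second shANP32B library (adjusted p = 0.0136) and with no filter on low counts (adjusted p = 0.0469). GP1BB, the β subunit, appeared only within the read-through transcript SEPT5-GP1BB, which had 7 and 7 counts in shANP32B cells, against 9 and 1 counts in shNC cells, and was not tested. VWF, the ligand of the complex, had 2.05 and 1.86 CPM in shANP32B cells, against 2.25 and 2.03 CPM in shNC cells (log2 fold change -0.14, adjusted p = 0.864). The count of GP1BA divided by that of GP9, a ratio chosen after the values were seen, was 12.7 and 12.3 in shANP32B cells, against 5.78 and 6.80 in shNC cells. The scale of a library cancels in that ratio, and its 2 groups did not overlap.

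Both subunits of the fibrinogen receptor were abundant in KU812 cells. ITGA2B, the αIIb subunit and a marker of the megakaryocyte lineage, had 2170 and 1980 CPM in shANP32B cells, against 1870 and 1700 CPM in shNC cells. Its difference was small and missed the threshold (log2 fold change 0.22, SE 0.089, 95% confidence interval 0.02 to 0.41, adjusted p = 0.12). It was past the threshold without the first shNC library (0.28, adjusted p = 0.00102) and with library totals in place of TMM scaling (0.27, adjusted p = 0.0495). ITGB3, the β3 subunit, which also pairs with ITGAV, had 416 and 443 CPM in shANP32B cells, against 369 and 273 CPM in shNC cells. It passed the test (log2 fold change 0.42, SE 0.129, adjusted p = 0.0391), but not without the second shNC library (0.21, adjusted p = 0.115) or without the second shANP32B library (0.36, adjusted p = 0.161). ITGAV, its other partner, had 21.4 and 22.0 CPM in shANP32B cells, against 36.7 and 24.7 CPM in shNC cells, and did not pass (log2 fold change -0.50, adjusted p = 0.0802), though it did without the second shNC library (-0.77, adjusted p = 0.000113). The count of ITGA2B divided by that of ITGB3 was 5.2 and 4.46 in shANP32B cells, against 5.06 and 6.24 in shNC cells, and these ranges overlapped. Of the 20 other integrin subunits tested, 1 rose and 2 fell, a share near the 16.6% called among all genes tested. Their median log2 fold change was -0.13. ITGA9, which pairs with β1, rose (log2 fold change 1.19, 4.36 and 5.77 CPM against 2.75 and 1.67 CPM), while ITGA4 (-0.75) and ITGB2 (-0.73), subunits of leukocyte integrins, fell. With single libraries left out, between 0 and 2 of the integrin subunits rose and between 2 and 5 fell. The call of ITGA9 was lost without the second shNC library (0.87, adjusted p = 0.069) and without the second shANP32B library (0.96, adjusted p = 0.246).

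F2R and PLEK, which act in the response to thrombin, both rose in KU812 cells. F2R, the thrombin receptor PAR1, had 180 and 189 CPM in shANP32B cells, against 91.0 and 79.8 CPM in shNC cells. All values of the knockdown were above all values of the control, by a ratio of means of 2.16 (log2 fold change 1.11, SE 0.115, 95% confidence interval 0.86 to 1.36, adjusted p = 3.93e-05). F2RL3, the second thrombin receptor of human platelets (PAR4), had 141 and 152 CPM in shANP32B cells, against 90.9 and 107 CPM in shNC cells, and rose as well (log2 fold change 0.57, adjusted p = 0.00574). That call was lost without the second shANP32B library (0.50, adjusted p = 0.0596). The count of F2R divided by that of F2RL3 was 1.27 and 1.24 in shANP32B cells, against 1.00 and 0.747 in shNC cells. PLEK had 103 and 96.3 CPM in shANP32B cells, against 50.4 and 51.8 CPM in shNC cells. Its 2 libraries per group lay close together, and the ratio of means was 1.95 (log2 fold change 0.96, SE 0.119, 95% confidence interval 0.71 to 1.22, adjusted p = 0.000161).

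PF4 and TUBB1, by which mature megakaryocytes are often recognised, were low in KU812 cells and did not pass the test. PF4, an alpha-granule chemokine, had 13 and 12.4 CPM in shANP32B cells, against 11.2 and 7.73 CPM in shNC cells (log2 fold change 0.42, SE 0.228, 95% confidence interval -0.07 to 0.91, adjusted p = 0.231). The 2 shNC libraries differed from each other by more than the lower shANP32B library differed from the upper shNC library, and the gene was past the threshold when the first shNC library was left out (0.71, adjusted p = 0.0304). Reads of PF4 and its near-identical copy PF4V1 may have been shared in counting, and PF4V1 is not listed in the tables used here. PPBP, the chemokine gene next to PF4 in the genome and also stored in alpha granules, had 6.44 and 3.67 CPM in shANP32B cells, against 21.4 and 14.6 CPM in shNC cells, and fell (log2 fold change -1.83, SE 0.280, adjusted p = 0.000781). The count of PF4 divided by that of PPBP was 2.02 and 3.37 in shANP32B cells, against 0.523 and 0.529 in shNC cells. The levels of both genes given above already fix that these ratios do not overlap. TUBB1 had 26.5 and 30.1 CPM in shANP32B cells, against 24.0 and 23.1 CPM in shNC cells (log2 fold change 0.26, SE 0.152, 95% confidence interval -0.06 to 0.59, adjusted p = 0.267). Of 11 other tubulin genes tested, TUBA1A rose (0.85), TUBB4A fell (-1.22), and 9 did not pass. That share was near the 16.6% called among all genes tested.

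TIMP3 had 450 and 481 CPM in shANP32B cells, against 866 and 871 CPM in shNC cells. The libraries of each group lay close together and far from the other group, with a ratio of means of 0.536 (log2 fold change -0.90, SE 0.094, 95% confidence interval -1.10 to -0.70, adjusted p = 3.99e-05). TIMP3 lies within an intron of SYN3 on the opposite strand, and SYN3 had 43 and 39 counts in shANP32B cells, against 31 and 28 counts in shNC cells. TIMP1, a soluble inhibitor of the same family, had 486 and 563 CPM in shANP32B cells, against 296 and 347 CPM in shNC cells, and rose (log2 fold change 0.70, adjusted p = 0.00108). The count of TIMP3 divided by that of TIMP1 was 0.926 and 0.855 in shANP32B cells, against 2.92 and 2.51 in shNC cells. The levels of both genes given above already fix the direction of that ratio. Of 17 genes tested for other TIMPs and the metalloproteinases they inhibit, 6 rose and 1 fell, with a median log2 fold change of 0.39. Among all genes tested, 7.53% were called higher and 9.06% lower. The gelatinase MMP2 had 34.1 and 44.5 CPM in shANP32B cells, against 9.44 and 9.20 CPM in shNC cells (log2 fold change 2.07). The membrane-bound protease MMP14, which activates MMP2, rose by 0.85 on the log2 scale, and ADAM12 by 1.32 (3.90 and 5.12 CPM against 1.86 and 1.75 CPM), although the call of ADAM12 was lost without the second shANP32B library (adjusted p = 0.201).

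Genes of other platelet functions were read from lists of known roles, with the members taken out. Of 23 other platelet and megakaryocyte surface receptors tested in KU812 cells, 11 rose and 2 fell. Among all genes tested, 7.53% were called higher and 9.06% lower. The median log2 fold change of these receptors was 0.57. CLEC1B, the receptor for podoplanin, was rare at 4.36 and 3.67 CPM in shANP32B cells, against 0.930 and 0.407 CPM in shNC cells (log2 fold change 2.56, adjusted p = 0.00239). The thromboxane receptor TBXA2R rose by 1.39, the ATP-gated channel P2RX1 by 1.06 and the adrenergic receptor ADRA2A by 0.97, whereas the ADP receptor P2RY1 (-0.68) and the scavenger receptor CD36 (-0.31) fell. With single libraries left out, between 9 and 12 surface receptors rose and between 1 and 5 fell, 5 of them without the second shNC library.

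Across all genes tested in KU812 cells, 7.53% were called higher and 9.06% lower. Among 23 granule and secreted proteins, 3 rose and 6 fell, with a median log2 fold change of 0.11. Those that fell included the proteoglycan SRGN, which packs granule contents (log2 fold change -1.88), the chemokine CCL5 (-2.06) and coagulation factor V, F5 (-1.999). SRGN had 171 and 186 CPM in shANP32B cells, against 587 and 726 CPM in shNC cells. F5 was rare, at 0.733 and 1.41 CPM in shANP32B cells, against 4.47 and 4.11 CPM in shNC cells. Clusterin, CLU (0.89), multimerin 1, MMRN1 (0.43), and TGFB1 (0.40) rose. With single libraries left out, between 1 and 5 granule genes rose (1 without either shANP32B library and 5 without the first shNC library) and 6 fell each time. Of 34 signalling enzymes and adaptors, 9 rose and 1 fell, with a median of 0.20. Thromboxane synthase, TBXAS1 (0.99), arrestin ARRB1 (0.79), the guanylate cyclase subunit GUCY1A3 (0.78) and phospholipase PLCG2 (0.68) rose, and the adaptor CD2AP fell (-0.47). The count of signalling genes that rose was between 3 and 12 when single libraries were left out and that of those that fell between 0 and 2, and the call of GUCY1A3 was lost without the first shANP32B library (0.62, adjusted p = 0.137). Of 26 cytoskeleton genes, 6 rose and 2 fell, with a median of 0.14. The dynamin gene DNM3 had 46.1 and 50.2 CPM in shANP32B cells, against 10.5 and 9.52 CPM in shNC cells (log2 fold change 2.26). Of the tropomyosin genes, TPM4 rose (0.68) and TPM1 fell (-0.91), and the kinase MYLK rose (0.55), a call that was lost when either shANP32B library was left out (adjusted p = 0.129 and 0.127). The cytoskeleton genes that rose numbered between 2 and 8 when single libraries were left out, and 10 with library totals in place of TMM scaling, and those that fell between 2 and 6, with 6 without the second shNC library.

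Of 25 transcription factors of megakaryocytes tested in KU812 cells, 1 rose and 3 fell, a share near the 16.6% called among all genes tested, and their median log2 fold change was 0.01. GATA1 had 219 and 188 CPM in shANP32B cells, against 197 and 206 CPM in shNC cells (log2 fold change 0.02, 95% confidence interval -0.22 to 0.26). FLI1 had 205 and 195 CPM in shANP32B cells, against 203 and 181 CPM in shNC cells (0.06, 95% confidence interval -0.18 to 0.29), and RUNX1 had 296 and 298 CPM in shANP32B cells, against 302 and 288 CPM in shNC cells (0.01, 95% confidence interval -0.21 to 0.22). None of these passed, their groups overlapped, and their signs flipped under other settings. NFE2 had 395 and 363 CPM in shANP32B cells, against 330 and 338 CPM in shNC cells (0.18, adjusted p = 0.244). RBM15, an RNA-binding protein (-0.80), KLF1, an erythroid factor (-0.68), and the cofactor LDB1 (-0.66) fell, and the corepressor CBFA2T3 rose (0.31, adjusted p = 0.0492), a call that was lost with no filter on low counts (adjusted p = 0.0598) and when the first shNC library or either shANP32B library was left out, at adjusted p-values between 0.0667 and 0.313.

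**Figure D2:**
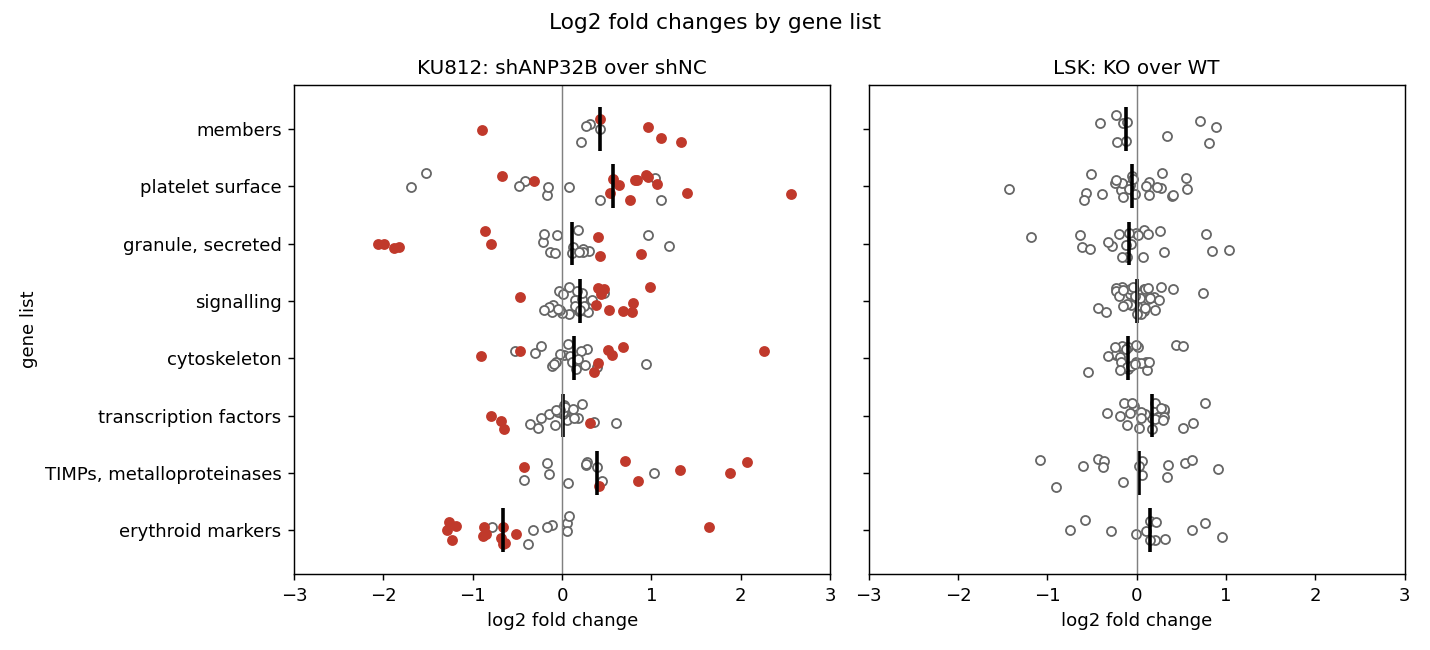
Each point is the log2 fold change of 1 tested gene of a list, shANP32B over shNC in KU812 cells on one side and KO over WT in LSK cells on the other, with filled points past the adjusted threshold and a bar at the list's median. In KU812 cells the surface receptors have a median of 0.57 with 11 genes called higher, the transcription factors lie around 0, the erythroid markers have a median of -0.66 with 12 called lower, and no LSK point is called.

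Markers of other cell types also moved in KU812 cells, and their part in the changes of the platelet genes was not tested. Across all genes tested, 7.53% were called higher and 9.06% lower. Of 21 erythroid markers, 12 fell and 1 rose, and their summed level was 7010 and 7500 CPM in shANP32B cells, against 10300 and 11400 CPM in shNC cells, with none of them at 0 in any library. Of 14 markers listed for basophils and mast cells, 5 rose and 3 fell. They summed to 6250 and 6310 CPM in shANP32B cells, against 6480 and 5900 CPM in shNC cells. That sum joined opposite changes. EPX (-4.48), CLC (-2.69) and PRG2 (-1.48), which are known foremost as eosinophil genes, fell on the log2 scale. CPA3 (1.06), LTC4S (1.26), TPSAB1 (1.21), TPSB2 (1.26) and TPSD1 (1.47) rose. Neutrophil and monocyte markers summed to 69.7 and 75.4 CPM in shANP32B cells, against 57.3 and 54.6 CPM in shNC cells (3 of 9 rose). Lymphoid markers summed to 161 and 138 CPM in shANP32B cells, against 202 and 189 CPM in shNC cells (2 of 8 fell). Most of that sum was CD4 (94 and 77.8 CPM, against 101 and 96.5 CPM). Stromal and endothelial markers summed to 504 and 492 CPM in shANP32B cells, against 566 and 463 CPM in shNC cells (3 of 12 rose). Most of that sum was LEPR (333 and 319 CPM, against 406 and 316 CPM). Single libraries had 0 counts of GZMB (the first of each group), CD8B (the second shANP32B library) and DCN (the first shANP32B library). In bulk libraries, fewer or more cells with a transcript and less or more of it per cell cannot be told apart.

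In LSK cells none of the 10 members passed the test between KO and WT, nor did any of the 14598 genes tested (0% called by edgeR in either direction). By an unadjusted p under 0.05, 4.5% of the genes tested (657) passed, and DESeq2 called 15 genes, none of them a member. Without the first WT library edgeR called 36 genes and no member, and without the second it called 830 genes, F2r among them. The median log2 fold change (KO over WT) of the 10 members was -0.12, beside -0.01 over all genes tested. Both KO libraries lay above both WT libraries for 3 members, Gp1ba, Gp1bb and Itgb3, and below them for 2, Pf4 and Plek, while the groups did not overlap in 33.2% of all genes tested (17.7% higher and 15.6% lower). The adjusted p-values of the members ran from 0.986 to 0.994. Without the first WT library the sign of F2r changed, and the log2 fold changes lay between -0.36 (Itga2b) and 2.41 (Tubb1). The signs of Itga2b, Gp9 and Timp3 changed when another single library was left out.

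**Figure D3:**
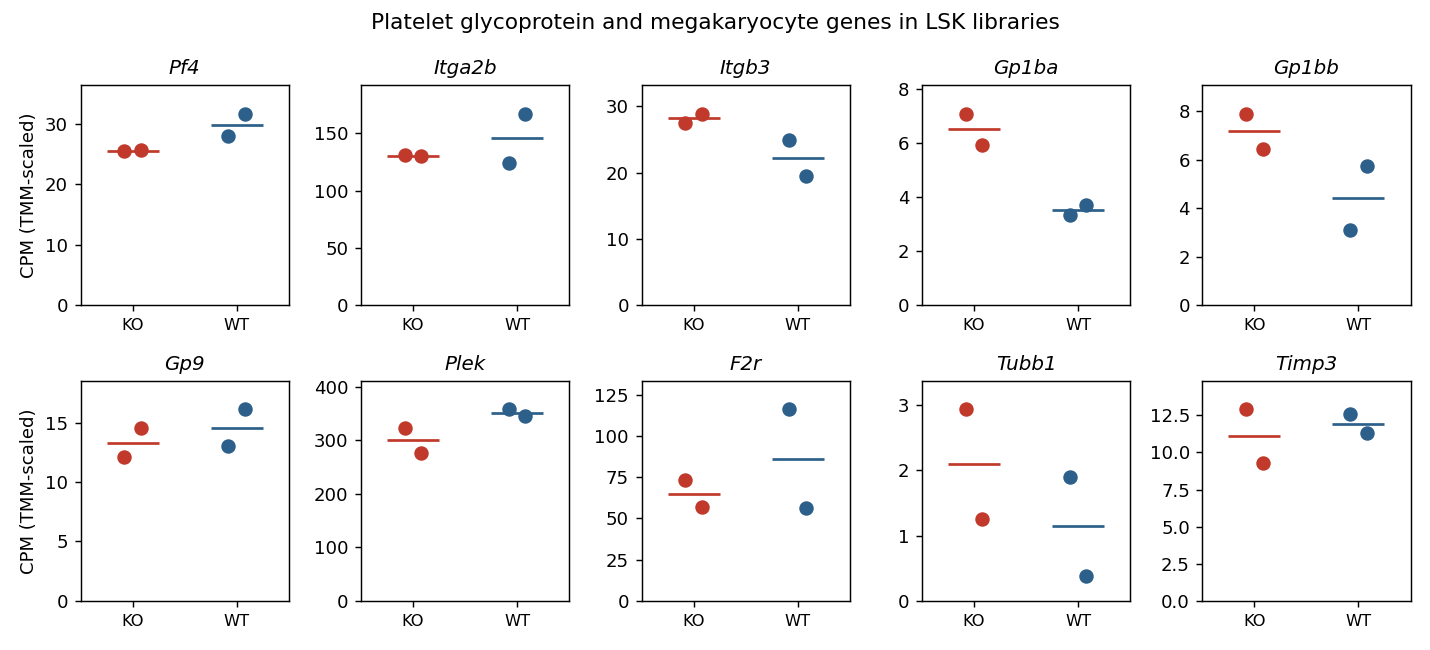
Level of each member in the 4 LSK libraries, in TMM-scaled CPM on linear axes from 0, 1 panel per gene, with the 2 KO libraries left of the 2 WT libraries and a bar at each group's mean. Plek is near 300 CPM and Tubb1 near or below 3 CPM, and the groups overlap for 5 of the 10 genes.

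Gp1ba (chr11:70639122-70642036, GRCm38, plus strand) had 7.08 and 5.94 CPM in KO cells, against 3.34 and 3.72 CPM in WT cells. Both KO libraries were higher (log2 fold change 0.88, SE 0.331, 95% confidence interval 0.12 to 1.65), but the adjusted p of edgeR's test was 0.986. Gp1bb (chr16:18620317-18622403, minus strand) had 7.89 and 6.43 CPM in KO cells, against 3.08 and 5.73 CPM in WT cells (log2 fold change 0.71, 95% confidence interval -0.18 to 1.61). The log2 fold change of Gp1bb was 0.32 without the first WT library and 1.21 without the second. It overlaps Sept5 on the same strand, which had 6.51 and 7.69 CPM in KO cells, against 9.96 and 12.1 CPM in WT cells, so counting could have split reads between them. Gp9 (chr6:87778072-87779768, plus strand) had 12.1 and 14.5 CPM in KO cells, against 13 and 16.1 CPM in WT cells (-0.12, 95% confidence interval -0.65 to 0.41), and the log2 fold change was -0.28 without the first WT library and 0.04 without the second. The groups overlapped for Gp9, and the count of Gp1ba divided by that of Gp9 was 0.584 and 0.409 in KO cells, against 0.258 and 0.231 in WT cells. In both experiments that ratio, chosen after the values were seen, was higher in both perturbed libraries than in both controls. The ratios of Pf4 to Ppbp and of F2r to F2rl3 were lower in both KO libraries, opposite to KU812 cells. Pf4 over Ppbp was 2.85 and 3.91 in KO cells, against 5.02 and 10.7 in WT cells, a direction that the levels of both genes already fix. F2r over F2rl3 was 3.9 and 3.51 in KO cells, against 11 and 4.2 in WT cells. Gp5 had 7.24 and 7.76 CPM in KO cells, against 2.36 and 9.26 CPM in WT cells, where the 2 WT libraries lay on either side of both KO libraries, and its log2 fold change was -0.30 without the first WT library and 1.66 (adjusted p = 0.0229) without the second.

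Itga2b (chr11:102453297-102470122, minus strand) had 131 and 130 CPM in KO cells, against 124 and 167 CPM in WT cells (log2 fold change -0.15, 95% confidence interval -0.55 to 0.24). Itgb3 (chr11:104608000-104670476, plus strand) had 27.5 and 28.9 CPM in KO cells, against 25 and 19.5 CPM in WT cells (0.34, 95% confidence interval -0.10 to 0.77). The KO values lay between the WT values for Itga2b and above them for Itgb3, by less than the 2 WT libraries differed from each other. Without the first WT library the log2 fold change was -0.36 for Itga2b and 0.53 for Itgb3, and without the second it was 0.07 for Itga2b and 0.17 for Itgb3. F2r (chr13:95601803-95618487, minus strand) had 73.0 and 57.1 CPM in KO cells, against 116 and 56.1 CPM in WT cells (-0.41, 95% confidence interval -1.12 to 0.30). The first WT library was 2.06 times the second for F2r, and the log2 fold change was 0.21 without the first and -0.83 (adjusted p = 0.00953) without the second. In the mouse, platelets lack PAR1 and respond to thrombin through other receptors of the family. F2rl3, which encodes PAR4, had 18.7 and 16.3 CPM in KO cells, against 10.6 and 13.4 CPM in WT cells (0.55, adjusted p = 0.986).

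Plek (chr11:16971206-17052381, minus strand) had 323 and 277 CPM in KO cells, against 358 and 345 CPM in WT cells (log2 fold change -0.23, 95% confidence interval -0.58 to 0.12). Pf4 (chr5:90772435-90773383, plus strand) had 25.5 and 25.7 CPM in KO cells, against 28.0 and 31.7 CPM in WT cells (-0.22, 95% confidence interval -0.60 to 0.16). Both were lower in both KO libraries without passing the test. Ppbp had 8.95 and 6.57 CPM in KO cells, against 5.57 and 2.96 CPM in WT cells (0.84, adjusted p = 0.986), and its log2 fold change was 1.38 without the first WT library and 0.47 without the second. Tubb1 (chr2:174450695-174457882, plus strand) rested on 36 and 18 counts in KO cells, against 29 and 4 counts in WT cells, and its interval was wide (0.81, 95% confidence interval -0.97 to 2.59). The log2 fold change of Tubb1 was 2.41 without the first WT library and 0.12 without the second. Timp3 (chr10:86300372-86349506, plus strand, inside Syn3 on the minus strand) had 12.9 and 9.30 CPM in KO cells, against 12.6 and 11.3 CPM in WT cells (-0.11, 95% confidence interval -0.70 to 0.48). For Tubb1 and Timp3 the 2 groups overlapped, and with single libraries left out the value of Timp3 ran from -0.36 to 0.11.

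Per kilobase of exon, which allows levels to be compared between genes, Plek stood highest of the members in LSK cells, at 66.9 ± 7.31 CPM per kb in KO cells and 78.2 ± 2.11 CPM per kb in WT cells (SD, n = 2 each). Pf4 followed at 35.5 ± 0.255 CPM per kb in KO cells and 41.3 ± 3.62 in WT cells, and then Itga2b at 24.0 ± 0.138 in KO cells and 26.8 ± 5.52 in WT cells. F2r had 19.5 ± 3.36 CPM per kb in KO cells and 25.7 ± 12.6 in WT cells, and Gp9 had 15.1 ± 1.94 in KO cells and 16.6 ± 2.53 in WT cells. Itga2b and F2r, and F2r and Gp9, differed by less than the spread of the F2r level in WT cells. Below them Itgb3 had 4.78 ± 0.173 CPM per kb in KO cells and 3.78 ± 0.668 in WT cells, and Gp1bb had 3.43 ± 0.494 in KO cells and 2.11 ± 0.896 in WT cells. Gp1ba had 2.40 ± 0.295 CPM per kb in KO cells and 1.30 ± 0.0986 in WT cells, and Tubb1 had 1.49 ± 0.839 in KO cells and 0.811 ± 0.761 in WT cells. Timp3 had 1.36 ± 0.308 CPM per kb in KO cells and 1.46 ± 0.115 in WT cells. Gp1bb and Gp1ba in WT cells, and Tubb1 and Timp3 in both groups, lay within 1 SD of each other. The transcripts of the 2 partners that form the αIIbβ3 integrin differed more than 4-fold per length, and Gp9 exceeded Gp1ba and Gp1bb more than 4-fold in both groups.

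No gene of the other platelet lists passed the test in LSK cells. The median log2 fold change was -0.05 over 25 surface receptors, -0.09 over 23 granule genes, 0.01 over 35 signalling genes, -0.10 over 24 cytoskeleton genes, 0.17 over 25 transcription factors, -0.28 over 11 tubulins, -0.14 over 20 integrin subunits and 0.02 over 15 TIMPs and metalloproteinases. By the smallest unadjusted p, with an adjusted p of 0.986 each, the receptor chain Fcer1g had a log2 fold change of -0.51 and the junction protein Esam 0.56. Among granule genes, Gas6 had 1.03 and Ccl5 -1.18, and among signalling genes the calcium channel Orai1 had 0.41 and the kinase Prkcb -0.43. The transcription factors Tal1 and Gata1 had 0.63 and 0.52. Ston2 (-0.55), Mylk (-0.33), Tubb2a (-0.57), Tubb6 (-0.57), Itgad (-1.73), Itgb5 (0.62), Mmp8 (-0.91) and Mmp14 (0.91) were those of the remaining lists. Itgad rested on 4 and 4 counts in KO cells, against 14 and 12 counts in WT cells. Without the second WT library Gas6, Tal1, Tubb6, Mmp8 and Mmp14 were past the threshold, at adjusted p-values between 0.00158 and 0.0263. Without the first WT library none of them was, and the log2 fold change was -0.09 for Tubb6, -0.12 for Prkcb, 0.54 for Mmp14, 0.38 for Tal1, -0.37 for Tubb2a and 1.03 for Itgb5. Of the known partners, Vwf had 53.0 and 49.6 CPM in KO cells, against 57.4 and 51.5 CPM in WT cells (-0.09). Fli1 (-0.14), Nfe2 (0.31), Itgav (0.18) and Runx1 (-0.03, with the opposite sign under library totals) did not pass either.

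Markers of neutrophils and monocytes, whose mature cells the LSK gate removes, were also read. They summed to 6720 and 8490 CPM in KO cells, against 11200 and 9210 CPM in WT cells. Mpo held the largest part of that sum, at 3100 and 4130 CPM in KO cells, against 6040 and 4490 CPM in WT cells. Whether these transcripts came from mature cells or from progenitors within the gate was not tested. Each of the 21 markers tested had a log2 fold change below 0 and 15 were lower in both KO libraries, while none passed the test. Of all genes tested in LSK cells, 48.6% had a log2 fold change above 0. In both KO libraries 15.6% of them were lower and 17.7% higher than in both WT libraries. The part of the neutrophil and monocyte markers in the LSK values of the platelet genes was not tested. Erythroid markers summed to 269 and 335 CPM in KO cells, against 298 and 329 CPM in WT cells, and 9 of 13 had a log2 fold change above 0. Lymphoid markers summed to 133 and 171 CPM in KO cells, against 205 and 140 CPM in WT cells. Most of the lymphoid sum was Nkg7 (82.6 and 111 CPM in KO cells, against 105 and 84.8 CPM in WT cells), while 3 of the 17 tested had a log2 fold change above 0, with a median of -0.66. Basophil and mast cell markers, in a list that also held the eosinophil genes Prg2 and Epx, summed to 771 and 757 CPM in KO cells. Their sums were 675 and 777 CPM in WT cells. Most of that sum was Kit and Gata2, which stem and progenitor cells also express, and of the 11 tested 4 were lower in both KO libraries (Cpa3, Hdc, Ms4a2 and Mcpt8) and 1 was higher, with a median of -0.32. Stromal and endothelial markers summed to 290 and 265 CPM in KO cells, against 358 and 307 CPM in WT cells, and 1 of the 11 tested had a log2 fold change above 0. None of these markers passed the test. Cma1 and Cdh5 had 0 counts in the first KO library, and Igll1, Trbc1 and Dcn in the second, while no marker was at 0 in the WT libraries.

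Whether the members responded differently in the 2 experiments was tested as an interaction over all 8 libraries, as the log2 fold change in KU812 cells minus that in LSK cells. Among 10771 symbols shared by both species, 2.22% were called, 0.891% higher and 1.33% lower. Of the 9 members tested, 1 was called, and it was higher. PLEK differed by 1.21 (SE 0.168, 95% confidence interval 0.84 to 1.58, adjusted p = 0.00575), with a log2 fold change of 0.96 in KU812 cells and -0.23 in LSK cells. That call was lost without the second KO library (1.10, adjusted p = 0.0545). F2R differed by 1.53 (SE 0.360) and just missed the threshold (adjusted p = 0.0525). It was past it without the first WT library (0.93, adjusted p = 0.037) and without the second WT library (1.96, adjusted p = 0.000764).

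TIMP3 (-0.76, 95% confidence interval -1.25 to -0.28, adjusted p = 0.102) and PF4 (0.66, 95% confidence interval 0.03 to 1.29, adjusted p = 0.257) were not called. For GP1BA, which had a positive log2 fold change in both experiments (1.32 and 0.88), the difference was 0.46 with a 95% confidence interval of -0.14 to 1.05, so a difference of up to about 1 on the log2 scale was not resolved. ITGA2B (0.39), ITGB3 (0.10), GP9 (0.45) and TUBB1 (-0.44) were not called, and the sign of ITGB3 and of TUBB1 changed when single libraries were left out. Species and cell type differ together between the experiments and cannot be told apart. Among the partners, PPBP (-2.65, adjusted p = 0.0283) was called, with the lower log2 fold change in KU812 cells, and 4 of the 8 fits that left out 1 library lost that call.

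**Figure D4:**
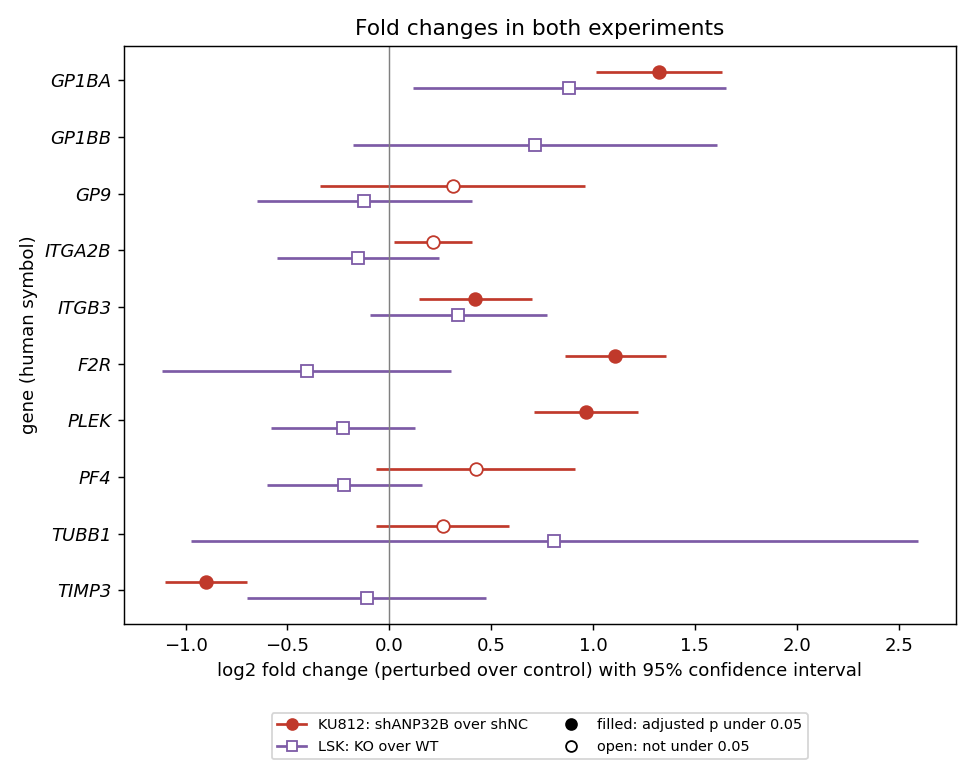
Log2 fold change of each member with its 95% confidence interval, shANP32B over shNC in KU812 cells and KO over WT in LSK cells, from separate edgeR fits. Filled points passed the adjusted threshold (GP1BA, F2R, PLEK, ITGB3 and TIMP3, all in KU812 cells), and the widest interval is that of Tubb1 in LSK cells (-0.97 to 2.59).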

How the data were processed

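Total RNA, extracted with Trizol, went into standard Illumina libraries, per the labels' protocols. HISAT2, TopHat, Cufflinks and DESeq, with GRCm38 and GRCh38, are credited to the submitters' processing notes, which give no roles or versions. No source used here names the counter, its strand setting or the annotation, and reads of overlapping or antisense genes may have been mixed. The authors deposited 1 table of whole-number, unnormalized counts per gene symbol for each library. Genes summing to under 10 counts over 4 libraries are not among those analysed here.

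Each experiment was fitted over its whole table with edgeR 4.0.16 in R 4.3.3 (filterByExpr, TMM, quasi-likelihood test, Benjamini-Hochberg adjustment, threshold 0.05). The interaction used 10855 symbols equal in upper case, of which 10771 were tested. SEs are the coefficient divided by the square root of F, and intervals are at 95%. No 2 replicates agreed within sampling noise (chi-square per degree of freedom 9.74 in shANP32B, 19.6 in shNC, 7.7 in KO and 47.7 in WT). The fits were tested on simulated data. DESeq2 1.42.0 (its test, and its size factors in edgeR), library totals, no filter, the replicate block and leaving out each library were the alternatives, and the counts of the gene lists under them were added after seeing the data.

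Members and lists were chosen with earlier results of these data known. The text names all members, the targeted gene, known partners and regulators, of which 1 is not reported here, and of each platelet list up to 4 called genes with the largest fold change and a mean of at least 50 counts, or else 2 with the smallest p. Mouse coordinates are from GENCODE on GRCm38, and promoters from RefSeq (GRCm38.p6), which had 9 of the 10 members. Human coordinates and sequences were not used here.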

Additional observations from a re-analysis of the deposited data

Results flagged for a closer look

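The results of PLEK, PPBP and the targeted gene differed between the experiments in a test of the difference itself, the interaction in edgeR's quasi-likelihood model over 8 libraries. The log2 fold change of PLEK in KU812 cells minus that in LSK cells was 1.21 (adjusted p = 0.00575). That call was lost without the second KO library, where the difference was 1.1. PLEK was higher in both shANP32B libraries than in both controls, as were 29.5% of all genes tested in KU812 cells. Plek was lower in both KO libraries, as were 15.6% of all genes tested in LSK cells, and did not pass edgeR's test there (adjusted p = 0.986). For PPBP the difference was -2.65 (adjusted p = 0.0283), and that call was lost when either KO library, the first shNC library or the second shANP32B library was left out. For ANP32B itself the difference was -0.991 (adjusted p = 0.0255), with a log2 fold change of -2.77 in KU812 cells and -1.76 in LSK cells, and that call was lost when any 1 KO, shANP32B or shNC library was left out, at adjusted p-values between 0.0543 and 0.153. With 2 libraries per group, no single library could be tested for standing apart.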

How the results depend on the processing

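GP1BA, F2R, PLEK and TIMP3 kept their KU812 calls under all 9 alternatives, with log2 fold changes of 1.21 to 1.43, 1.01 to 1.20, 0.911 to 0.998 and -0.96 to -0.856 when single libraries were left out, and the members that rose numbered 3 to 6. DESeq2's test called 15 LSK genes (5 higher and 10 lower) where edgeR called 0. Leaving out 1 library gave 0 to 830 LSK genes (0 to 376 higher and 0 to 454 lower) with 0 to 1 members lower, 1413 to 4047 KU812 genes (566 to 1814 higher and 847 to 2233 lower, 2741 with all libraries) and 38 to 719 interaction genes (12 to 337 higher and 26 to 382 lower, 239 with all libraries) with 0 to 2 members. The lowest KU812 count was without the second shANP32B library and the highest without the second shNC library, and the interaction count was lowest without the second KO library and highest without the second WT library. A fit with a lone library in a group assumes that it varies like the other groups, and the cause of these shifts was not tested.

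With the replicate number as a block, 15 LSK genes (8 higher and 7 lower), 4164 KU812 genes (1982 higher), 285 interaction genes and 2 interaction members (PLEK and F2R, at 1.46) were called. ITGA2B (adjusted p = 0.0328), GP5 and ITGAV then passed in KU812 cells. Libraries with the same number deviated together at r = 0.172 in KU812 cells and -0.0779 in LSK cells, and they share only a number.

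Small log2 fold changes turned their sign. Runx1 in LSK cells was 0.0214 with library totals, and RUNX1 in KU812 cells was -1.12e-05 with no filter. With single libraries left out, the LSK values ran from -0.355 to 0.0692 for Itga2b, -0.275 to 0.0372 for Gp9, -0.834 to 0.209 for F2r, -0.361 to 0.107 for Timp3, -0.305 to 1.66 for Gp5 and -0.137 to 0.0892 for Runx1. In KU812 cells they ran from -0.1 to 0.107 for GATA1, -0.035 to 0.14 for FLI1 and -0.0361 to 0.0387 for RUNX1. The interaction ran from -0.104 to 0.353 for ITGB3, -2.12 to 0.262 for TUBB1, -0.0551 to 0.159 for RUNX1, -0.106 to 0.0607 for VWF and -0.139 to 0.212 for F2RL3. Low depth limits genes such as Tubb1 and Itgad in LSK cells and GP5, CLEC1B and F5 in KU812 cells, each under 5 CPM in every library.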
